A study of Mus musculus with 9 samples.

Results

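The peptidyl arginine deiminase locus of mouse chromosome 4 holds the enzyme genes Padi1, Padi2, Padi3 and Padi4. It also holds Gm13032, a noncoding gene on the strand opposite Padi1. These 5 members are among 55228 features that were counted by RNA sequencing of mouse uterus. The locus was chosen on the counts of Gm13032, which were low in libraries of uteri that had received transplanted cells, and the enzyme genes were chosen by family. For the members, differences that involve those libraries are therefore descriptions without a test. Gm13032 and Padi2, 2 of the 5 members, passed the filter on low counts, as did 3722 of all features.

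Peptidyl arginine deiminases (PADs) are calcium-dependent enzymes that turn arginine residues of proteins into citrulline, which removes a positive charge. Their substrates include keratins, filaggrin, vimentin and the tails of histones. In rodents, PAD levels in the uterus vary over the oestrous cycle and respond to oestrogen, and the uterine enzyme lies mainly in the epithelium. The genes sit side by side in mammals, so that 1 stretch of chromosome carries the whole family.

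Uterine RNA was sequenced on day 7 from 9 wild-type female C57BL mice of 8 weeks, 3 in each of 3 groups, with 1 library per mouse. The sham group had a sham operation. Uteri of the injury group were damaged mechanically with 10 passes of a 27-gauge needle and then received 50 μL of PBS. The CRC group had the same injury followed by 1000000 wild-type CRCs in 50 μL. CRCs are conditionally reprogrammed cells, here endometrial epithelial cells that had been grown with irradiated feeder cells. No feature counted marks the transplanted cells, so the injury and CRC labels could not be checked against the counts. Injury and CRC therefore stand below for libraries so labelled. An exchange of these labels would exchange the meaning of each value given under them. The libraries labelled CRC stood apart: edgeR called 746 of 3722 tested features between them and sham and 481 between them and injury, beside 16 between injury and sham. With 1 library left out this last count ranged from 3 (without the third sham or the second injury library) to 154 (without the first sham library), and it was 4 and 8 without the third and the first injury library.

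The sham libraries held 325384, 317754 and 327883 counts on features. The injury libraries held 290684, 280886 and 282937, and the CRC libraries 288619, 289964 and 290833. These were 0.776 to 0.898% of the records of each library, and 87.3 to 91.6% of records fell in no feature. Levels are given as CPM, the count scaled to a library total of 1000000 with TMM factors. A single count stood for 3.05 to 3.7 CPM. Where a library had 0 counts, the upper limit was set at 3 counts, which is 9.14 to 11.1 CPM. Intervals of levels and of shares of counts, like such limits, cover counting error alone. Those of fitted log2 differences also cover spread between mice. They assume a normal distribution and are narrower than intervals from the test beside them would be.

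On GRCm38 the members span 206722 bases of chromosome 4, from 140745865 to 140952586. Padi4 (ENSMUSG00000025330.6, 140745865 to 140774236), Padi3 (ENSMUSG00000025328.9, 140785365 to 140810648) and Padi1 (ENSMUSG00000025329.3, 140812983 to 140845778) lie on the minus strand in that order. Padi2 (ENSMUSG00000028927.6) lies on the plus strand from 140906344 to 140952586, 60565 bases beyond Padi1. Gm13032 (ENSMUSG00000085918.1) lies on the plus strand from 140810993 to 140817511. The annotation classes it as a processed transcript and gives it 3 exons with 2001 bases. Gm13032 starts 344 bases from the start of Padi3 and is read away from it, into the last exons of Padi1.

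**Figure D1:**
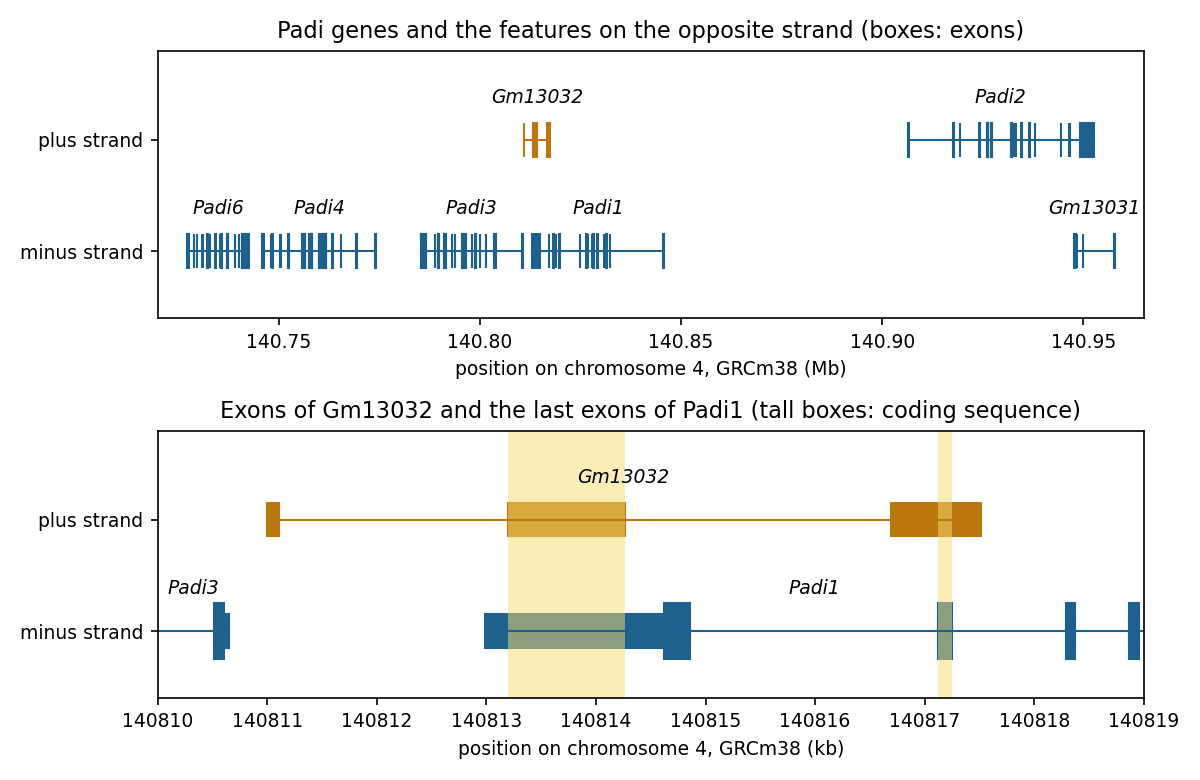
Map of the Padi locus on chromosome 4 of GRCm38, with position on the horizontal axis (Mb above, kb below), the strand on the vertical axis and boxes for exons. The lower map enlarges Gm13032, and the shading marks the 1074 and 126 bases that its exons share with exons 16 and 15 of Padi1.

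Exon 2 of Gm13032, 1074 bases from 140813194 to 140814267, lies wholly within the noncoding part of Padi1's exon 16. Exon 3 of Gm13032 covers the 126 bases of Padi1's exon 15, all of them coding. Together the overlaps make up 1200 bases, which are 60% of the exon bases of Gm13032 and 32% of those of Padi1. Padi2 has an opposite partner of its own, the antisense gene Gm13031, whose exon 2 covers 149 bases of Padi2's exon 16. Padi3 and Padi4 have no annotated exon opposite theirs.

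The deposited tables carry the rows for uncounted reads that htseq-count writes, and its strand setting is not stated in the sources. Actb, a gene that is abundant in nearly all cells, had 6 counts over the 9 libraries, Gapdh had 76 and Eef1a1 had 53. Without the strand setting, transcripts of Padi1 and of Gm13032 cannot be told apart by the row on which a read was counted. The same holds for Padi2 and its antisense gene Gm13031, and for the other genes named below. A level given for a gene is therefore that of the row with its name, from whichever strand its reads came. Tagln had 159 counts beside 130075 on Gm48529 opposite it, and Hoxa11 had 147 beside 6450 on Hoxa11os. If reads were counted on the strand opposite to their transcript, the Gm13032 row would hold reads of Padi1 and the Padi2 row antisense reads, which was not tested. Of the 5505 counts on Padi1 and Gm13032, 1 was on Padi1, a share of 0.0182% (95% Wilson interval 0.00321 to 0.103%). For Padi2 and Gm13031 the balance lay the other way, with 81 of 89 counts on Padi2 (91%, interval 83.3 to 95.4%).

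Gm13032 was the abundant feature of the locus in sham and injured uterus and stood at a small part of that level in the CRC libraries. In sham it had 868, 1237 and 1076 counts, or 2815, 4579 and 3848 CPM. In injury it had 905, 485 and 792 counts, or 3140, 1705 and 2779 CPM. In CRC it had 77, 37 and 27 counts, or 235, 114 and 82.4 CPM. The 3 CRC libraries lay below each of the other 6 libraries, while sham and injury overlapped, with 2779 CPM in the third injury library beside 2815 in the first sham library. By count, Gm13032 ranked between 14 and 61 among the features of each sham and injury library, and between 675 and 1779 in the CRC libraries.

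The group means of Gm13032 were 3747 ± 886 CPM in sham, 2542 ± 746 CPM in injury and 144 ± 80.3 CPM in CRC (SD, n = 3 each). The order of levels was sham, injury and CRC, and the first pair did not differ beyond its spread. Against sham, the fitted log2 difference of CRC was −4.70 (SE 0.40), 26-fold lower, and single pairs of libraries gave 12-fold to 55.6-fold. Against injury it was −4.14 (SE 0.39), 17.7-fold lower, with pairs from 7.27-fold to 38.1-fold. These comparisons share the CRC libraries, so their values stand side by side as descriptions. Ordered from the lowest log2 difference among 3722 tested features, Gm13032 came at place 9 against sham and at place 10 against injury. The fifth percentile of all tested features was −1.55 and −1.25. In whole tissue, fewer cells of a type and less RNA per cell cannot be told apart.

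The injury against sham comparison asks what the needle damage left at day 7, and it was not used to choose the members. It shares the sham libraries with the CRC against sham comparison. For Gm13032 the log2 difference was −0.56 (SE 0.32, 95% interval −1.18 to 0.07), with an adjusted p of 0.529 from edgeR's quasi-likelihood test. For Padi2 it was −0.24 (SE 0.58, interval −1.38 to 0.90), with an adjusted p of 0.913. Of the 2 members tested, 0 were called at an adjusted p under 0.05, where 0.430% of all tested features were called. Their unadjusted p-values were 0.112 and 0.684, and DESeq2, which gave Padi2 no adjusted p, called neither. The p-values measure spread between mice.

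Gm13032 varied between mice of a group. In sham, injury and CRC the highest library stood 1.63-fold, 1.84-fold and 2.85-fold above the lowest. For example, the second injury library had 1705 CPM (95% counting interval 1557 to 1864) beside 3140 CPM (2939 to 3352) in the first. The second and the third sham libraries also had more ambiguous reads, 28622 and 24851, than the first with 2571, and their part in the values was not tested.

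**Figure D2:**
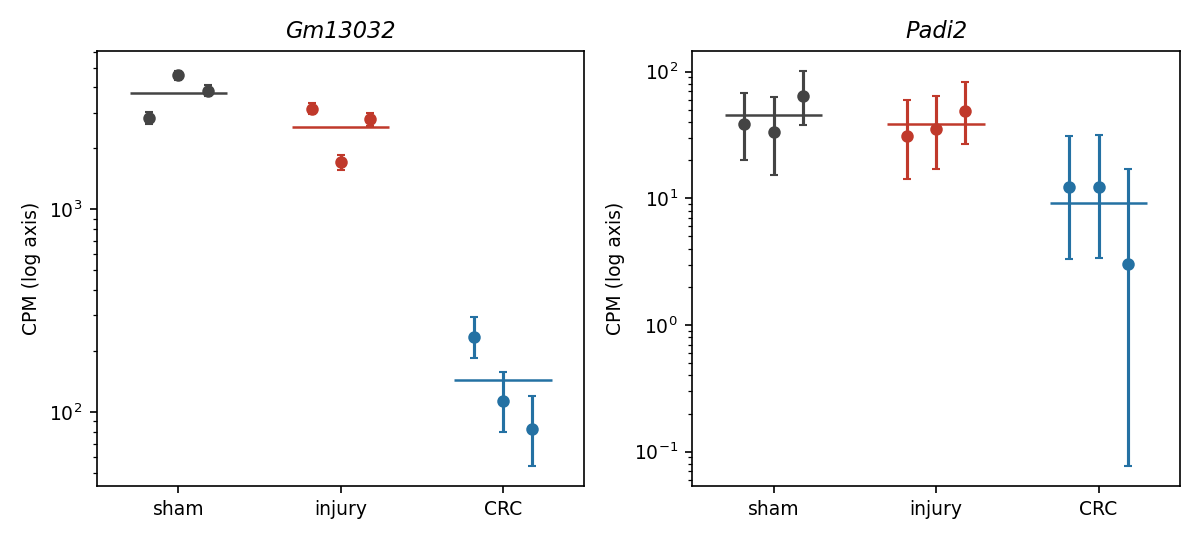
CPM of Gm13032 and Padi2 (vertical log axes) in the 9 libraries by group, with 95% counting intervals as bars and group means as lines. CRC libraries lie between 82.4 and 235 CPM for Gm13032 and between 3.05 and 12.3 CPM for Padi2, below the other libraries of either feature.

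Padi2 encodes the PAD with the widest tissue distribution, which citrullinates histone H3 at oestrogen receptor target genes in cultured breast cancer cells. Among the rows of the enzyme genes, that of Padi2 was the one with more than a single count. In sham it had 12, 9 and 18 counts, or 38.9, 33.3 and 64.4 CPM. In injury it had 9, 10 and 14 counts, or 31.2, 35.2 and 49.1 CPM. In CRC it had 4, 4 and 1 counts, or 12.2, 12.3 and 3.05 CPM. Sham and injury again overlapped, and the CRC libraries lay below both.

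Group means of Padi2 were 45.5 ± 16.5 CPM in sham, 38.5 ± 9.4 CPM in injury and 9.17 ± 5.3 CPM in CRC (SD, n = 3 each). Against sham, the fitted log2 difference of CRC was −2.26 (SE 0.68), 4.79-fold lower, and pairs of libraries gave 2.71-fold to 21.1-fold. Against injury it was −2.02 (SE 0.69), 4.06-fold lower, with pairs from 2.54-fold to 16.1-fold. Few reads stand behind these values, and counting intervals of single libraries meet across groups: 33.3 CPM in the second sham library had an interval of 15.2 to 63.2, and 12.3 CPM in the second CRC library one of 3.35 to 31.5. Gm13031, opposite Padi2, had 8 counts in all: 6 in sham, 2 in injury and 0 in CRC.

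For both tested members the libraries of CRC did not overlap those of sham, nor those of injury. The same held for 35.5% of tested features between CRC and sham and for 33.5% between CRC and injury. Between injury and sham neither member was free of overlap, beside 15.7% of features. edgeR called 20.0% of features between CRC and sham, 8.03% higher and 12.0% lower. Between CRC and injury it called 12.9%, 5.10% higher and 7.82% lower. The balance of directions turns with library sizes that include reads outside features, at 643 of 924 calls higher against sham and 334 of 523 against injury. Since the CRC libraries chose the locus, nothing is read from the members' place in these shares.

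Per kilobase of exon, Gm13032 had a mean level of 1873 CPM in sham, 1270 in injury and 71.7 in CRC. Padi2 had 9.08, 7.68 and 1.83 CPM per kilobase. The level of Gm13032 was thus 206 times that of Padi2 in sham, 165 times in injury and 39.2 times in CRC, where Padi2 had 9 counts. These ratios are a description, since the low Gm13032 counts in CRC chose the locus.

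Padi1, the PAD of uterine and epidermal epithelium, had 0 counts in 8 libraries and 1 count in the third CRC library. Padi3, which acts on trichohyalin in the hair follicle and on filaggrin in the epidermis, had 0 counts in all 9 libraries. Padi4, the PAD with a nuclear localization signal and the enzyme of neutrophil extracellular traps, also had 0 counts in all 9. These zeros limit the reads counted on the rows, at 9.14 to 11.1 CPM in a library, and not the level of the transcripts, since the widely expressed neighbours Sdhb and Rcc2 also had 0 counts. No annotated exon lies opposite those of Padi3 and Padi4. No difference between groups was detectable on the rows of Padi1, Padi3 or Padi4. Padi6, the oocyte member of the family, lies next to Padi4 and had 1 count, in the first injury library.

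Within 100 kb on either side of the members, the annotation holds 18 features with 5635 counts in all. Gm13032 carried 97.7% of them. Of the 13 features that are not members, Mfap2, a microfibril component, had 22 counts and Crocc, a ciliary rootlet component, had 16. Atp13a2 had 2, and Arhgef10l, Rcc2 and Sdhb had 0. Of the 18 features, 10 had 0 counts in all 9 libraries. Mfap2 had 11 counts in sham, 3 in injury and 8 in CRC, and Crocc had 4, 5 and 7. Among the neighbours none passed the filter, and their differences were not tested.

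The stretches before the starts of Padi1, Padi2 and Gm13032 are shown because Gm13032 and Padi2 were both low in CRC while Padi1 lies across from Gm13032. All 5 members matched the RefSeq promoter table, which uses GRCm38.p6. Each line gives the 250 bases before the RefSeq start, 5′ to 3′ on the gene's strand, with motif matches in capitals. Padi1 is chr4:140845779-140846028 on the minus strand, Padi2 is chr4:140906110-140906359 on the plus strand, and Gm13032 is chr4:140810743-140810992 on the plus strand. RefSeq and GENCODE starts differ for Padi2 and Padi4, so that the last 16 and 33 bases of these windows lie within the GENCODE gene.
Padi1: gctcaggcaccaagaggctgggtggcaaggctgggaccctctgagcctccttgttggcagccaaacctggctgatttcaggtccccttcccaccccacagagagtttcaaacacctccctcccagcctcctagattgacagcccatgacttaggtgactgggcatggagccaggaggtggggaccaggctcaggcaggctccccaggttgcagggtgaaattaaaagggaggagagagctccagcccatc
Padi2: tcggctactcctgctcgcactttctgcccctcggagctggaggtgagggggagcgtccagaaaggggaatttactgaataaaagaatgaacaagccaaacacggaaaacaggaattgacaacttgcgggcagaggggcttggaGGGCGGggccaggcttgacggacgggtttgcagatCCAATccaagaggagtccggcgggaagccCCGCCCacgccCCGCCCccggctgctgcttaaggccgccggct
Gm13032: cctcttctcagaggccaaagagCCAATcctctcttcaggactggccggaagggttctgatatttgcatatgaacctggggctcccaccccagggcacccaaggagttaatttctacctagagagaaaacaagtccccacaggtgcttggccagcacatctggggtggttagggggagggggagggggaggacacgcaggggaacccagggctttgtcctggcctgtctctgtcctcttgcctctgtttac

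The motifs searched on both strands were the palindromic oestrogen response element GGTCANNNTGACC, its arm with 1 more base AGGTCA, the GC box GGGCGG, the TATA box TATAAA and the CCAAT box CCAAT. A full element that follows an A holds an AGGTCA match as well. Padi2 held 3 GC boxes, with first bases at −107, −43 and −32, and a CCAAT box at −72, counted from the RefSeq start. Gm13032 held a CCAAT box at −228, within the 156 bases that its window shares with that of Padi3. Padi1 held none of the 5 motifs. Padi3 held a GC box and 2 CCAAT boxes, and Padi4 held a TATA box at −31. Among the 32851 promoters of the table, the GC box occurred in 32.7%, the CCAAT box in 33.8% and the TATA box in 12.4%. The AGGTCA arm occurred in 14% and the full element in 0.0639%, and these letters are in none of the 5 windows. The window of Padi2 had 17 CG pairs with 61.6% G and C, and that of Padi1 had 0 CG pairs with 60%.

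The oestrogen response was read from 18 genes, among them Greb1, Pgr, Ltf, Lcn2 and Ccnd1, and from the features with an exon opposite theirs. Of the 18 genes, 8 had 0 counts in all libraries, Greb1 and Lcn2 among them. Between CRC and sham, 2 of the 4 tested features were called, both lower and both opposite features, where 20.0% of all tested features were called and 12.0% were called lower. Gm48140, opposite Greb1, had 285, 267 and 333 CPM in sham. It had 271, 207 and 295 CPM after injury, and the CRC libraries held 140, 123 and 156 CPM. Its log2 difference of CRC was −1.08 (SE 0.24, adjusted p 0.00141) against sham and −0.88 (SE 0.24, adjusted p 0.012) against injury. LTO1, opposite the cyclin gene Ccnd1, had 1498 ± 51.3, 1320 ± 115 and 654 ± 66 CPM in sham, injury and CRC (SD, n = 3). Its log2 difference was −1.19 (SE 0.15, adjusted p 7.58e-07) against sham and −1.01 (SE 0.15, adjusted p 1.71e-05) against injury. In both features all 3 CRC libraries lay below the other 6. Of all tested features, 35.5% were free of overlap between CRC and sham and 33.5% between CRC and injury. The call of Gm48140 against injury held in 11 of 14 alternatives (adjusted p 0.00345 to 0.0775). It was lost without the third injury library (−0.80), without the second CRC library (−0.80) and with library sizes that include reads outside features (−0.69).

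Pgr, the progesterone receptor gene, and Ccnd1 on its own row were not called between CRC and sham, at −0.08 (SE 0.23, adjusted p 0.848) and 0.05 (SE 0.22, adjusted p 0.9). Nor were they between CRC and injury, at 0.48 (SE 0.24, adjusted p 0.206) and −0.19 (SE 0.21, adjusted p 0.652). The libraries of Pgr did not overlap there, as for 33.5% of all tested features. Between injury and sham they did not overlap either (−0.56, SE 0.24, adjusted p 0.323), as for 15.7%. The median log2 difference of the 4 features was −0.58 between CRC and sham and −0.54 between CRC and injury, beside 0.03 and 0.01 over all tested features. Among tested features with an annotated exon opposite theirs, the median between CRC and sham was −0.07, and 154 were higher and 344 lower. Among the other 1575, which had none or did not match the annotation, it was 0.19, with 145 higher and 103 lower.

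**Figure D3:**
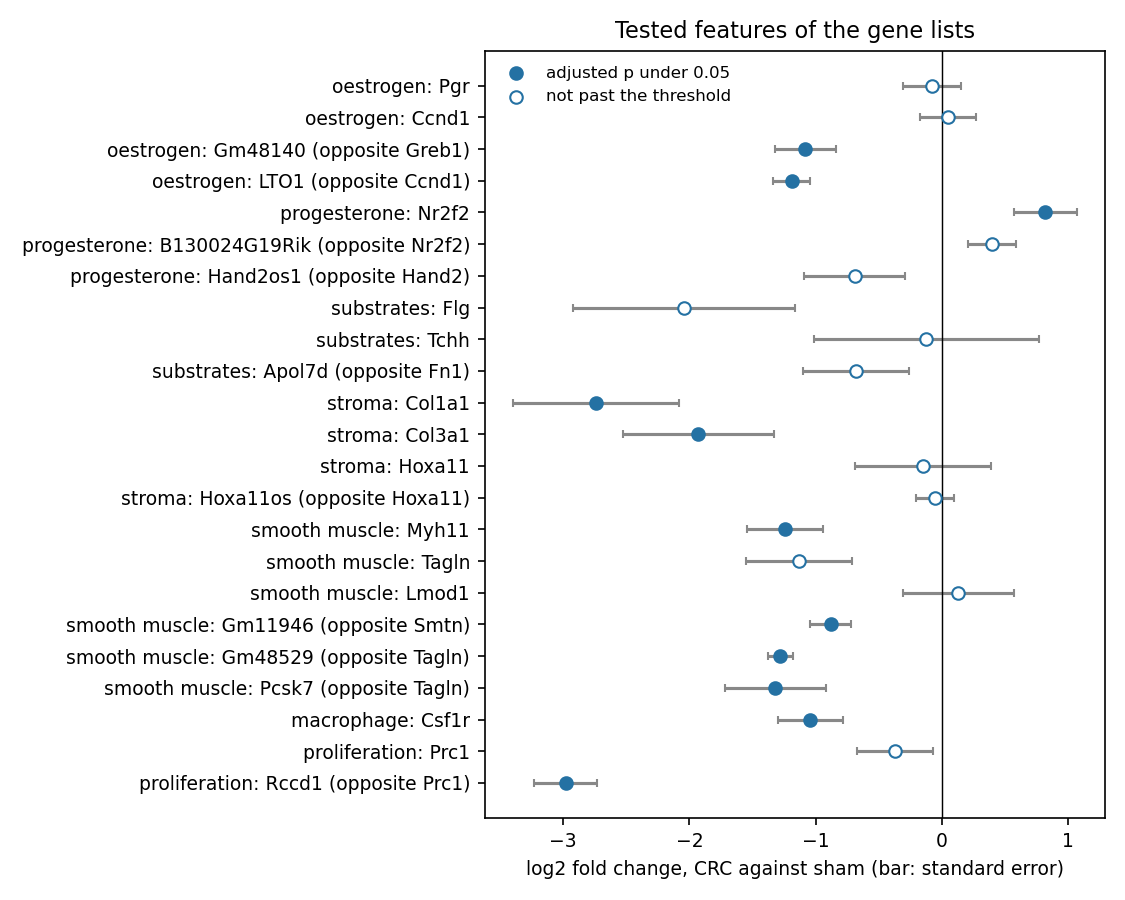
Log2 difference between CRC and sham (horizontal axis, bars for the standard error) of each tested feature of 7 gene lists, named on the vertical axis with the gene it stands opposite. Filled points are past an adjusted p of 0.05. Of the oestrogen features, Gm48140 and LTO1 lie near −1.08 and −1.19, and Pgr and Ccnd1 near 0.

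Of 15 genes for known PAD substrates, 4 had 0 counts, and 3 features were tested. Flg encodes profilaggrin, the epidermal substrate of Padi1 and Padi3. Its counts were 5, 5 and 9 in sham. They were 11, 19 and 12 in injury, and 3, 2 and 0 in CRC. The CRC libraries were the lowest and the injury libraries the highest, without overlap. Of all tested features, 35.5% were free of overlap between CRC and sham and 33.5% between CRC and injury. Between injury and sham Flg was not called (log2 1.13, SE 0.68, adjusted p 0.525), and 15.7% of all tested features were free of overlap there. Flg was lower in CRC than in injury (log2 −3.17, SE 0.82, adjusted p 0.00761) in all 3 libraries. In that comparison 7.82% of all tested features were called lower. Only the injury libraries reached 10 counts, so Flg passed the filter on low counts through the group where it was highest. Without a filter its value was −3.21 (adjusted p 0.00824 from edgeR). The call held in 12 of 13 alternatives (adjusted p 0.000503 to 0.074) and was lost without the second injury library (−2.90). Its value was −3.83 without the first CRC library and −2.63 without the third. Against sham it was −2.04 (SE 0.88, adjusted p 0.0993) and was not called. There edgeR and DESeq2 each called 0 of the 3 substrate features, with 1 at an unadjusted p under 0.05. Of all 3722 tested features, edgeR called 20.0% between CRC and sham, and 1193 had an unadjusted p under 0.05. Tchh, the trichohyalin gene on which Padi3 acts in hair, had a log2 difference of −0.12 (SE 0.89, adjusted p 0.947), and Apol7d, opposite the fibronectin gene Fn1, −0.68 (SE 0.42, adjusted p 0.268). The median of the 3 features was −0.68 against sham and −0.54 against injury.

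Of genes known in uterus, Pgr had 619 counts. On their own rows, markers of the cells in which PADs are known were at or near 0. These rows do not give the amount of such cells, since Actb, Gapdh and Eef1a1 had 6, 76 and 53 counts. The 9 epithelial markers had 52 counts over the 9 libraries, 27 of them on Muc1, and Cdh1 and Foxa2 had 0. Their summed level was 35.7, 33.3 and 17.9 CPM in the sham libraries, 6.94, 17.6 and 14 CPM after injury, and 18.3, 21.5 and 9.15 CPM in CRC. Of 10 neutrophil markers, beside which Padi4 is read, 9 had 0 counts and Ngp had 13. The 4 endothelial markers had 48 counts, 26 of them on Pecam1. In these 3 lists no feature passed the filter, so the part of epithelium or neutrophils in the levels of Gm13032 and Padi2 was not tested.

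Some rows of markers of other uterine cells, and some rows opposite them, were lower in CRC. The 6 tested smooth muscle features were 3 genes on their own rows and 3 features opposite such genes. Of the 6, 4 were lower than in sham (median −1.19), where 12.0% of all tested features were. These were Myh11 (−1.24), Gm11946 opposite Smtn (−0.88), and Gm48529 and Pcsk7, both opposite Tagln (−1.28 and −1.32). Tagln on its own row (−1.13, adjusted p 0.0528) and Lmod1 (0.13, adjusted p 0.872) were not called. The call of Pcsk7 held in 8 of 13 alternatives (adjusted p 0.011 to 0.11). It was lost with library sizes that include reads outside features (−1.02), without a filter (−1.29), without the third sham library (−1.26) and without the second or the third CRC library (−1.07 and −1.32). Against injury Gm48529 and Pcsk7 were lower (−0.94 and −1.50, list median −0.60), beside 7.82% of all tested features. Myh11 (−0.34, adjusted p 0.546) and Gm11946 (−0.43, adjusted p 0.0859) overlapped and were not called against injury. There Pcsk7 was not called without the second CRC library (−1.27, adjusted p 0.0706, the highest of a range from 0.00257). Between injury and sham edgeR called 0 of the 6 features and DESeq2 called 1. Myh11, Gm11946 and Gm48529 were lower in injury than in sham without overlap (−0.90, −0.44 and −0.34), as 15.7% of all tested features were free of overlap there.

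The summed level of the features opposite smooth muscle genes, nearly all of it on Gm48529 opposite Tagln, was 71462, 67384 and 67003 CPM in sham. It was 54842, 53331 and 54416 CPM in injury and 29491, 28080 and 27780 CPM in CRC. The muscle genes' own rows summed to 399, 559 and 490 CPM in the sham libraries, 291, 334 and 316 CPM after injury, and 241, 234 and 311 CPM in CRC.

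Of 4 tested stromal features, Col1a1 and Col3a1 were lower in CRC than in sham (−2.74, SE 0.66, adjusted p 0.00323, and −1.93, SE 0.60, adjusted p 0.0219), with a list median of −1.04, where 12.0% of all tested features were called lower. Hoxa11 (−0.15, adjusted p 0.889) and Hoxa11os (−0.05, adjusted p 0.869) were not called. In the CRC libraries Col1a1 had 3, 2 and 4 counts and Col3a1 had 6, 4 and 4. Both thus passed the filter on low counts through sham and injury libraries, where they were higher. Neither had a value in the fit of CRC and sham alone or with at least 10 counts in every library. The call of Col1a1 was lost without the third sham library (−2.28). That of Col3a1 was lost without a filter (−1.89), without the second sham library (−1.53) and without the second or the third CRC library (−1.82 and −1.83). The macrophage receptor gene Csf1r was lower in CRC than in sham (−1.04, SE 0.26, adjusted p 0.00431), while Adgre1, Mrc1 and Lyz2 had 0 counts. Against injury, 0 of the 4 stromal features and of the macrophage feature were called by edgeR or DESeq2 (Col1a1 −1.44, adjusted p 0.207, Col3a1 −1.07, adjusted p 0.316, Csf1r −0.76, adjusted p 0.0517). In that comparison edgeR called 12.9% of all tested features. Of the 5 list features, Hoxa11os and Csf1r had an unadjusted p under 0.05, as did 918 of all 3722 tested features. Hoxa11os stood higher in CRC than in injury (0.42, SE 0.15, adjusted p 0.0628). The part of these cell types in the levels of Gm13032 and Padi2 was not tested. Of the 3 tested features of a progesterone list, Nr2f2 was higher in CRC than in sham (0.82, SE 0.25, adjusted p 0.0189), where 8.03% of all tested features were called higher. Nr2f2 was not called against injury (0.67, adjusted p 0.0772). Its call against sham was lost without a filter (0.86), without the first or the third sham library (0.72 and 0.81) and without the second or the third CRC library (0.74 and 0.85). B130024G19Rik, opposite Nr2f2, was called against injury (0.58, adjusted p 0.0442), where 5.10% of all tested features were called higher. The call held in 6 of 14 alternatives, and B130024G19Rik was not called against sham (0.40, adjusted p 0.144). Its call was lost without the first or the third injury library (0.37 and 0.61) and without any of the 3 CRC libraries (0.53 to 0.64). It was also lost with the replicate block (0.60), with DESeq2 (0.58) and without a filter (0.54), and its adjusted p ranged from 0.00615 to 0.341. Hand2os1, opposite Hand2, was not called (−0.69, adjusted p 0.238). Of 2 tested features of a proliferation list, Rccd1 opposite Prc1 was lower in CRC than in sham (−2.98, SE 0.25, adjusted p 3.93e-10), where 12.0% of all tested features were called lower. Against injury Rccd1 was also lower (−3.59, SE 0.25, adjusted p 8.85e-12), where 7.82% of all tested features were called lower. Between injury and sham it was not called and stood higher in injury (0.61, SE 0.20, adjusted p 0.178). Prc1 on its own row was not called between CRC and sham (−0.37, SE 0.30, adjusted p 0.426). Between injury and sham edgeR called 0 of the 23 features of all lists, with 8 at an unadjusted p under 0.05, and DESeq2 called 1. Of all 3722 tested features, edgeR called 0.430% there, and 468 had an unadjusted p under 0.05.

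The tested features whose log2 CPM over the 9 libraries was most like that of Gm13032 were Gm10143, opposite the flap endonuclease gene Fen1 (Pearson r 0.990), Gm15853, opposite Tada1 (0.987), Gm10605, opposite Tpbgl (0.982), Gm9913, opposite the fibrillin gene Fbn1 (0.979), and the B lymphoid kinase gene Blk (0.978). The libraries fall in 3 groups and are not 9 independent points, so the likeness is a description. Gm10143 had 1212 ± 107 CPM in sham, 1012 ± 157 in injury and 330 ± 15.7 in CRC (SD, n = 3). Blk was counted 27, 41 and 42 times in the sham libraries, 19, 22 and 30 times after injury and 0 times in each CRC library. Padi2 came at place 96 in this order with an r of 0.925. For Padi2 the nearest features were Daglb, opposite Rac1 (0.960), Gm43556 (0.959), Gm9913 (0.950), Foxl2os, opposite the ovarian transcription factor gene Foxl2 (0.945), and Erp29 (0.944). Gm9913 was near both members, at 258 ± 16.1 CPM in sham, 247 ± 20.9 in injury and 122 ± 17.4 in CRC (SD, n = 3).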

How the data were processed

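For each of the 9 libraries the authors deposited 1 count of reads per feature, without normalization. The paper states alignment with HISAT2 2.1.0 and assembly with StringTie 2.1.1. Features were matched by name to GENCODE M21 on GRCm38 (53462 of 55228 to 1 gene), which is not the version the paper names. Groups came from the labels. In R 4.3.3 with edgeR 4.0.16, 3722 features passed filterByExpr and TMM factors set their scale. A single robust quasi-likelihood fit covered the 9 libraries and had no covariates. It was tested on simulated data drawn from the kind of count model it assumes, which cannot show whether the real counts follow that model. p-values were adjusted by Benjamini and Hochberg over all 3722 features, with a threshold of 0.05. For likeness, 2 was added as prior count before log2 CPM was taken. Alternatives were DESeq2 1.42.0, other scalings and filters, fits of the compared groups alone, a block for the replicate number and, in turn, the omission of each library. For list features these alternatives were added after the data were seen. Other steps used Python 3.11.15 with numpy 2.4.6, pandas 2.3.3, scipy 1.17.1 and matplotlib 3.10.9. Members and lists were chosen with earlier results of these data known. Named are all members and features opposite them, the neighbours within 100 kb by counts, tested list features, the most abundant gene of lists without a tested feature, some list genes at 0 counts (picked after their values were seen), 5 features most like each tested member, and Actb, Gapdh and Eef1a1.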

Additional observations from a re-analysis of the deposited data

How the results depend on the processing

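Under the alternatives that gave a value, Gm13032 stayed lower in CRC than in sham (−4.76 to −4.40, and −5.24 to −4.42 with 1 library left out) and than in injury (−4.19 to −3.95, and −4.69 to −3.88). Padi2 stayed lower in CRC than in sham (−2.32 to −1.98, and −2.50 to −1.86) and than in injury (−2.07 to −1.83, and −2.28 to −1.64). It failed the filter, and so had no value in the CRC comparisons, with at least 10 counts in every library and in fits of the compared groups alone. Between injury and sham, neither was called under any alternative. Padi2 turned from −0.24 to 0.09 without the third sham library (range −0.45 to 0.09 over left-out libraries), and Gm13032 ranged from −0.74 to −0.33. The calls between injury and sham, 16 in all, became 6 in the fit of these groups alone and 5 with the replicate block. They ranged from 3 to 154 with 1 library left out, 154 without the first sham library. The cause was not tested. Between CRC and sham the number of oestrogen features called was 2, or 2 to 3 with 1 library left out, of 4 to 12 tested. Library sizes that include reads outside features moved the median of all features by 0.29 between CRC and sham and by 0.20 between CRC and injury. They gave 924 calls between CRC and sham, 643 of them higher, beside 746 with 299 higher. Between CRC and injury they gave 523 calls with 334 higher, beside 481 with 190 higher. Padi2 rests on 81 counts in all. Padi1, Padi3 and Padi4, at 1, 0 and 0 counts, have no fitted value.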
